A study of Mus musculus with 8 samples.

Results

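Transcripts of 10 genes that carry or brake growth signaling in muscle were followed in the cardiac ventricles of male C57BL/6 mice with and without a tumor. They were the rows named Foxo1, Foxo3, Foxo4, Mtor, Rptor, Rictor, Ddit4, Ddit4l, Sesn1 and Sesn2 in the deposited table of gene counts. These 10 of its 43346 genes were chosen by name, with earlier results of these data known. The same holds for the gene lists below, so shares set against those of all genes are a description only. Tumor-bearing mice (LLC1, n = 4) had been injected under the skin of the flank with 1000000 cells of LLC1, a Lewis lung carcinoma line, at 7 weeks of age. Control mice (PBS, n = 4) received the phosphate-buffered saline vehicle at the same age, and ventricles of both groups were collected on day 14. All tumors came from 1 cell line, and the tumors themselves were not measured.

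FOXO proteins are forkhead transcription factors that the kinase AKT phosphorylates and keeps out of the nucleus when insulin and growth factor signaling is high. In muscle they switch on ubiquitin ligases, autophagy genes and brakes on translation when that signaling falls. The kinase mTOR works in complex 1, defined by the scaffold raptor (Rptor), which promotes protein synthesis and restrains autophagy, and in complex 2, defined by rictor (Rictor), which phosphorylates AKT. DDIT4 (REDD1) and its relative DDIT4L lower complex 1 activity by way of the TSC complex, and sestrins do so by way of the amino acid sensing branch. Transcript levels do not measure the activity of these proteins, which is set largely by phosphorylation.

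Levels are given as counts per 1000000 counts after TMM normalization (CPM), the groups were compared with the quasi-likelihood F-test of edgeR, and FDR stands for the p-value adjusted by the Benjamini-Hochberg method over the 16111 genes that could be tested. Libraries held 12480706 to 19747596 counts. The library PBS 1-1 stood apart from the other PBS-injected mice on the second principal component (25.2% of the variance), and its 20 most abundant genes took 26.4% of its counts compared to 19.1% to 21.1% in the other 7 libraries. Across all genes 8.73% were called at an FDR under 0.05, 4.12% higher and 4.61% lower in tumor-bearing mice. This was 663 genes higher and 743 lower. The split was 225 higher and 793 lower with scaling to library totals only, and 975 higher and 619 lower with offsets for gene length.

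Markers of the cell types of the ventricle differed between the groups and are given first because every level below was measured in whole tissue. The summed level of 9 cardiomyocyte markers was 105500 to 111200 CPM in tumor-bearing mice and 94070 to 96120 CPM in PBS-injected mice, without overlap, and 2 of the 9 (Myh6 and Myh7, the cardiac myosin heavy chains) were called higher. Fibroblast markers summed to 960.4 to 1072 CPM compared to 1068 to 1552 CPM, with 4 of 7 called lower, and endothelial markers to 879.3 to 1014 CPM compared to 978.6 to 1264 CPM, with 2 of 7 called lower. Macrophage markers summed to 185.4 to 228.8 CPM compared to 190.9 to 290.7 CPM, with 1 of 8 called lower, and mural cell markers to 793.5 to 855.4 CPM compared to 902.7 to 1069 CPM, with 0 of 7 called by edgeR, 3 at an unadjusted p under 0.05 and 1 by DESeq2. Dividing cell markers summed to 7.01 to 9.08 CPM compared to 20.6 to 54.3 CPM, and all 5 tested were called lower. Erythroid markers summed to 1428 to 5180 CPM compared to 1556 to 3097 CPM, with 0 of 5 called by edgeR or DESeq2 and 0 at an unadjusted p under 0.05. Skeletal muscle markers summed to 2803 to 3024 CPM compared to 2246 to 2571 CPM, with 1 of the 4 tested called higher (Ckm, the creatine kinase that heart muscle also expresses), while the defining Myh1, Myh2, Myh4 and Tnnt3 had too few counts to be tested. The epithelial markers Epcam, Cdh1 and Sftpc had too few counts to be tested, and those of the list that were tested numbered 3, of which edgeR called 0, as did DESeq2, with 0 at an unadjusted p under 0.05. In whole tissue fewer cells of a type and less RNA per cell cannot be told apart. The part of these cell types in the results below was not tested. Levels per cardiomyocyte marker are given below as a description only. Of that sum Myh6 alone made up 54330 ± 1434 CPM in tumor-bearing mice and 45870 ± 1227 CPM in PBS-injected mice, and the other 7 markers without Myh6 and Myh7 summed to 44760 to 49160 CPM compared to 42720 to 46600 CPM, with overlap.

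All 10 genes passed the filter on low counts. Sesn1 and Foxo3 rose in tumor-bearing mice, by 1.45-fold and 1.41-fold, and no gene of the 10 fell. The 2 called genes were 20% of the 10, compared to 8.73% of all genes tested. DESeq2 also called Sesn1 and Foxo3, and 5 of the 10 had an unadjusted p under 0.05 in edgeR. For 5 genes (Sesn1, Foxo3, Ddit4, Rptor and Foxo4) every tumor-bearing mouse lay above every PBS-injected mouse, 50% of the 10 compared to 17.2% of all genes tested whose groups did not overlap in either direction. The other 5 (Mtor, Rictor, Foxo1, Sesn2 and Ddit4l) overlapped. The log2 fold change was above 0 for 8 genes and below 0 for 2, with a median of 0.13 compared to -0.01 over all genes tested.

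**Figure D1:**
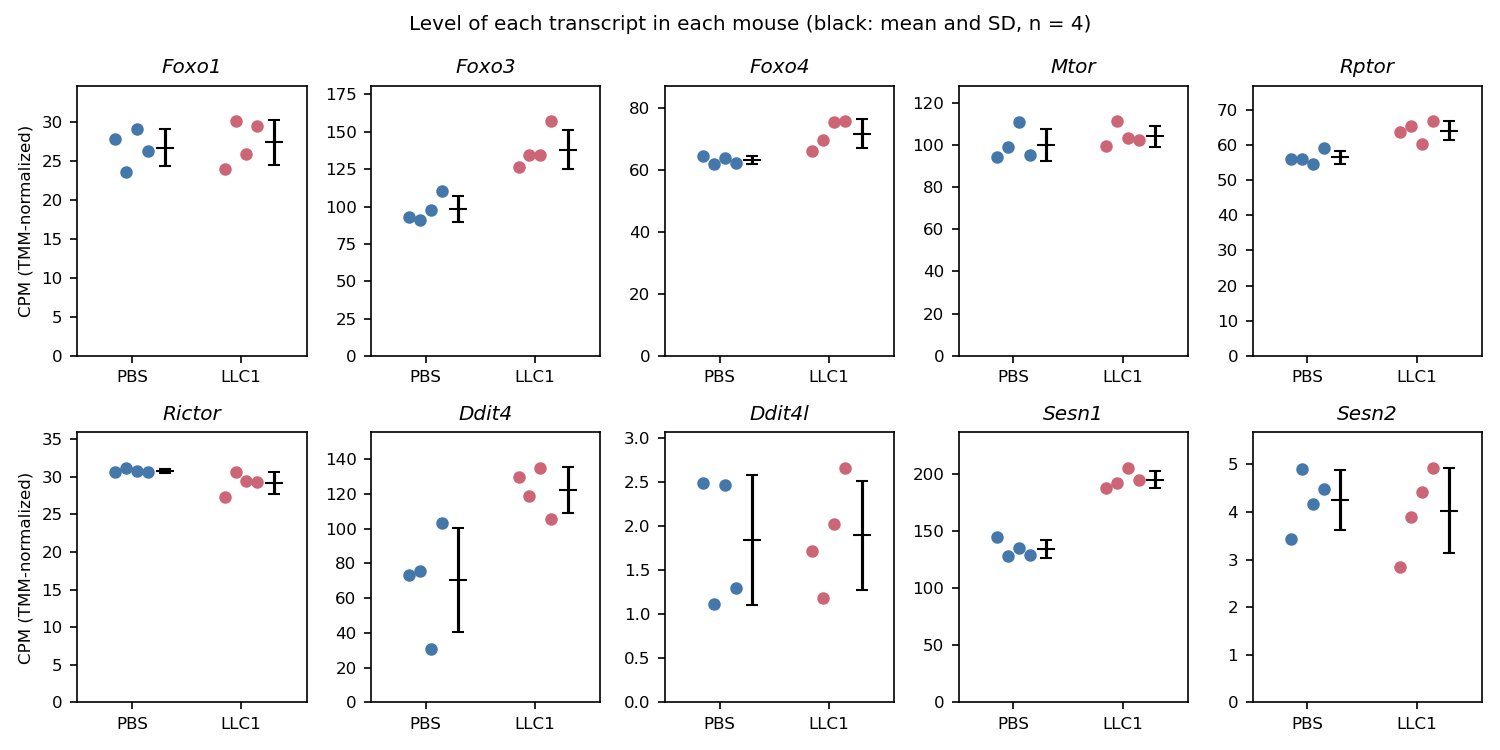
CPM of each of the 10 transcripts (vertical axes, each starting at 0) in the 4 PBS-injected mice (blue) and the 4 tumor-bearing mice (red), 1 point per mouse, with the group mean and SD in black. Sesn1 lay between 188.1 and 205.5 CPM in tumor-bearing mice and between 128.4 and 144.7 CPM in PBS-injected mice, while Mtor, Rictor, Foxo1, Sesn2 and Ddit4l overlapped between the groups.

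Among the FOXO factors, Foxo3 rose in tumor-bearing mice. FOXO3 is the member of the family best known for driving ubiquitin ligase and autophagy genes in muscle. Foxo3 (ENSMUSG00000048756, chromosome 10, 42181841 to 42276755 in mm10, as for all positions below) measured 126.3, 134.5, 134.7 and 157.1 CPM in the tumor-bearing mice 1-2, 1-3, 1-5 and 2-2, and 93.26, 91.21, 97.34 and 110.7 CPM in the PBS-injected mice 1-1, 1-3, 2-1 and 2-5. The lowest tumor-bearing mouse was thus above the highest PBS-injected mouse, PBS 2-5, and the spread within the groups was alike. Means were 138 ± 13.3 CPM (SD, n = 4) compared to 98.1 ± 8.78 CPM, a log2 fold change of 0.49 (SE 0.08, 95% interval 0.31 to 0.68) with an edgeR FDR of 0.00611. It was the gene of rank 191 by p among all tested. The call held in all 10 alternative analyses and without each of the 8 mice (FDR at most 0.031), including without PBS 1-1 (log2 fold change 0.47, FDR 0.00496). Divided by the summed cardiomyocyte markers of the same mouse, a measure chosen after the data were seen, Foxo3 was 1.155 to 1.49 per 1000 in tumor-bearing mice and 0.97 to 1.159 per 1000 in PBS-injected mice, so that the groups overlapped by this small margin, with a log2 difference of 0.31. Without Myh6 and Myh7 in the sum the difference was 0.40, also with overlap.

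Foxo4 and Foxo1 did not pass the test. FOXO4 is a smaller member of the family that is also expressed in striated muscle. Foxo4 (ENSMUSG00000042903, chromosome X, 101254528 to 101260873) measured 66.22, 69.66, 75.61 and 75.82 CPM in the tumor-bearing mice and 64.52, 61.91, 63.97 and 62.45 CPM in the PBS-injected mice, in the same order of mice. The groups did not overlap, but the gap was narrow and the PBS-injected mice lay within a CV of 1.95%. Its log2 fold change was 0.19 (SE 0.06) with an edgeR FDR of 0.0914, and offsets for gene length alone among the alternatives brought a call (log2 fold change 0.23, FDR 0.0445). Per cardiomyocyte marker the log2 difference of Foxo4 was -0.0033, or 0.09 without Myh6 and Myh7 in the sum, and the groups overlapped in both.

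Foxo1 (ENSMUSG00000044167, chromosome 3, 52268336 to 52353221), the FOXO factor most studied in liver and endothelium, showed no such shift. It measured 24.01, 30.09, 25.88 and 29.53 CPM in tumor-bearing mice and 27.80, 23.63, 29.07 and 26.33 CPM in PBS-injected mice. Either group held low and high mice, and the log2 fold change was 0.04 with a 95% interval of -0.17 to 0.24 (edgeR FDR 0.846). Per cardiomyocyte marker the log2 difference of Foxo1 was -0.15, with overlap. Of its exon bases 7.78% overlap Gm20402 on the other strand, and the use of strand in the counting was not given in the sources used here. Foxo6, the remaining FOXO gene and one known mainly from brain, was near the floor of detection at 1.51 ± 0.453 CPM compared to 2.03 ± 0.243 CPM (log2 fold change -0.40, FDR 0.302).

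The balance of the FOXO transcripts is given by their shares. Per kilobase of gene length, Foxo3 made up 41.9% to 45.2% of the summed level of Foxo1, Foxo3 and Foxo4 in tumor-bearing mice and 36.2% to 41.1% in PBS-injected mice, without overlap. Foxo4 held the largest share in both group means, 49.1 ± 1.57% compared to 53.1 ± 1.95% (SD, n = 4), and Foxo1 the smallest, 7.52 ± 0.623% compared to 9.01 ± 0.652%. The share of Foxo4 overlapped between the groups (47.4% to 51.1% compared to 50.4% to 54.6%). That of Foxo1 did so by a small margin (7.03% to 8.425% compared to 8.38% to 9.71%). These shares do not depend on how the libraries were scaled, and they were not tested.

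The mTOR kinase and rictor transcripts overlapped between the groups. Mtor (ENSMUSG00000028991, chromosome 4, 148448611 to 148557683) measured 99.23, 111.2, 103.4 and 102.3 CPM in tumor-bearing mice and 94.46, 99.00, 110.7 and 95.15 CPM in PBS-injected mice. LLC1 1-3 and PBS 2-1 were the highest mice of their groups and nearly equal. The log2 fold change of Mtor was 0.06 (SE 0.07) with a 95% interval of -0.09 to 0.21 and an edgeR FDR of 0.631, so that an increase beyond 1.155-fold and a fall to less than 0.939 of the PBS level lay outside the interval. Rictor (ENSMUSG00000050310, chromosome 15, 6708381 to 6800398) measured 27.25, 30.68, 29.43 and 29.28 CPM compared to 30.63, 31.20, 30.78 and 30.58 CPM. Only LLC1 1-3 reached the PBS-injected mice, which lay within a CV of 0.915%. The log2 fold change of Rictor was -0.08 with a 95% interval of -0.22 to 0.06 (edgeR FDR 0.485), and the sign turned under offsets for gene length (0.01) and for GC content (0.03). Per cardiomyocyte marker Rictor was 0.249 to 0.289 per 1000 in tumor-bearing mice and 0.319 to 0.332 per 1000 in PBS-injected mice, a log2 difference of -0.27 without overlap. The largest part of this sum was Myh6, itself called higher. Per sum of the 7 markers other than Myh6 and Myh7, also chosen after the data were seen, the log2 difference of Rictor was -0.17 and the groups overlapped (0.554 to 0.662 compared to 0.657 to 0.716 per 1000). For Mtor the difference per sum of all 9 markers was -0.12, with overlap.

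Rptor, the transcript of the complex 1 scaffold, lay higher in each tumor-bearing mouse without passing the test. Rptor (ENSMUSG00000025583, chromosome 11, 119602905 to 119899576) measured 63.57, 65.45, 60.34 and 66.72 CPM in tumor-bearing mice and 56.03, 56.09, 54.56 and 59.03 CPM in PBS-injected mice. The gap between LLC1 1-5 and PBS 2-5 was narrow. The log2 fold change was 0.18 (SE 0.06) with an edgeR FDR of 0.0818, and among the alternatives offsets for gene length brought a call (0.27, FDR 0.0164). Per cardiomyocyte marker the log2 difference of Rptor was -0.0037, or 0.09 without Myh6 and Myh7 in the sum, both with overlap. On the other strand, Rptoros covers 0.624% of its exon bases.

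Within a mouse, raptor transcripts stood higher against rictor transcripts in the tumor-bearing group. The ratio of Rptor to Rictor per kilobase was 1.612, 1.474, 1.417 and 1.575 in tumor-bearing mice and 1.264, 1.243, 1.225 and 1.334 in PBS-injected mice. The groups did not overlap, and the mean log2 difference of the ratio was 0.26. The ratio of Foxo4 to Foxo3 was lower in tumor-bearing mice, 1.048 to 1.219 compared to 1.225 to 1.503, separated only by the space between LLC1 1-5 and PBS 2-5. The ratio of Foxo1 to Foxo3 was lower as well, 0.1642 to 0.1955 compared to 0.2077 to 0.261. A ratio within a library is free of its scaling, though not of a trend with GC content or gene length or of the cell types in the sample. With offsets for GC content the log2 fold changes of Rptor and Rictor were 0.12 and 0.03, closer to each other than the 0.18 and -0.08 without them, and with offsets for gene length they were 0.27 and 0.01. The ratios were not tested.

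**Figure D2:**
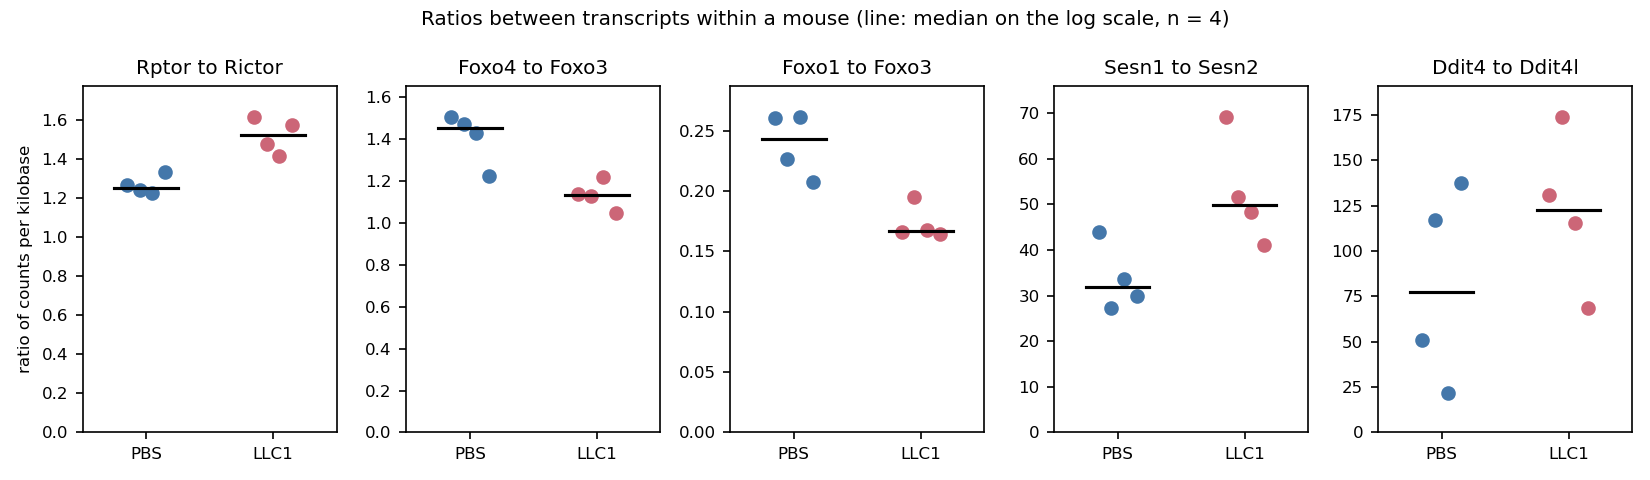
Ratios of the level per kilobase of one transcript to that of another in the same mouse (vertical axes, each starting at 0), with 1 point per mouse and the median of each group on the log scale as a line. Rptor to Rictor, Foxo4 to Foxo3 and Foxo1 to Foxo3 were without overlap between PBS-injected (blue) and tumor-bearing mice (red), whereas Sesn1 to Sesn2 and Ddit4 to Ddit4l overlapped.

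Sesn1 had the lowest FDR of the 10. Sestrins bind the GATOR2 complex and so hold back mTOR complex 1 at the lysosome when amino acids are scarce, and Sesn1 is a known target of p53 and of FOXO factors. Sesn1 (ENSMUSG00000038332, chromosome 10, 41810574 to 41908424) measured 188.1, 191.8, 205.5 and 194.4 CPM in the tumor-bearing mice 1-2, 1-3, 1-5 and 2-2, and 144.7, 128.4, 135.0 and 128.7 CPM in the PBS-injected mice 1-1, 1-3, 2-1 and 2-5. PBS 1-1 was the highest of the PBS-injected mice and still lay well below every tumor-bearing mouse. Means were 195 ± 7.50 CPM (SD, n = 4) compared to 134 ± 7.66 CPM, a log2 fold change of 0.54 (SE 0.06, 95% interval 0.40 to 0.68) with an edgeR FDR of 0.000832. It was the gene of rank 31 by p. The call held in all 10 alternative analyses and without each of the 8 mice (FDR at most 0.00653), with log2 fold changes of 0.51 to 0.58 over the latter. Per cardiomyocyte marker Sesn1 was 1.72 to 1.85 per 1000 in tumor-bearing mice and 1.35 to 1.51 per 1000 in PBS-injected mice, a log2 difference of 0.35 without overlap. Without Myh6 and Myh7 in the sum it was 0.45, also without overlap.

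The promoters of the called genes Sesn1 and Foxo3 and of Ddit4, which was not called, are shown because FOXO factors bind the letters GTAAACA, which were searched on both strands. Promoter windows from RefSeq (GRCm38.p6), from 250 bases before to 50 bases after a start, were at hand for 9 of the 10 genes, with 2 windows for Sesn1. The 250 bases before the start are printed 5′ to 3′ on the strand of the gene, with CG pairs in capitals.

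Sesn1, upstream start, chr10:41810324-41810573, plus strand: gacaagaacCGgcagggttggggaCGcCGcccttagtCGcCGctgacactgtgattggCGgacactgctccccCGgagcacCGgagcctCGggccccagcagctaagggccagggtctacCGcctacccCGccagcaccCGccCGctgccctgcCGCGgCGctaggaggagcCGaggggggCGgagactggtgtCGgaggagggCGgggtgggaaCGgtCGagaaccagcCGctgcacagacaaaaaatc

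Foxo3, chr10:42276696-42276945, minus strand: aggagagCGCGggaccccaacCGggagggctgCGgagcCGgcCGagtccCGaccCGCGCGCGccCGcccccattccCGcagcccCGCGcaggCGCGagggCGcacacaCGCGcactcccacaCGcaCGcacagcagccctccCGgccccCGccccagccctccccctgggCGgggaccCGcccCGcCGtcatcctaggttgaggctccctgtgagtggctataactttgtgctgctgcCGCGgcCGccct

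Ddit4, chr10:59951771-59952020, minus strand: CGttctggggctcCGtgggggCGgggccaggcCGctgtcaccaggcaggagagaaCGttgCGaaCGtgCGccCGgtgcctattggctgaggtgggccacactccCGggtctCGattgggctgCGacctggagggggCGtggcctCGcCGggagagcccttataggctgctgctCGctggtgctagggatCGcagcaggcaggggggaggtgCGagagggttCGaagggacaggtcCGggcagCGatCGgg

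These windows held 31 CG pairs in Foxo3, 23 in Sesn1 and 22 in Ddit4 compared to a median of 6 in the same 250 bases of all 32851 windows. The other genes with a window lay above and below these values, with 40 in Rictor, 20 in Foxo1, 19 in Mtor, 18 in Sesn2, 10 in Ddit4l and 9 in Rptor. GTAAACA was present in 1 of the 10 windows of these genes, and in 3.65% of all windows. It lay 22 bases after the upstream start of Sesn1 in reverse complement, shown in capitals with its surroundings.

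Sesn1, 30 bases around the match: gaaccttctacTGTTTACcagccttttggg

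TGATGNAA, an element bound by ATF4 with a C/EBP partner, was in 0 of these 10 windows and 3.97% of all, and CACGTG, the E-box, was in 0 and 7.15%. A match of letters is not a measured binding site, and a window without one says only that these letters are not in it.

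Sesn2, the sestrin known as a leucine sensor, was scarce in these ventricles. Sesn2 (ENSMUSG00000028893, chromosome 4, 132492032 to 132510501) measured 2.84, 3.88, 4.43 and 4.93 CPM in tumor-bearing mice and 3.43, 4.91, 4.18 and 4.49 CPM in PBS-injected mice, from 40 to 98 counts per library. The groups overlapped throughout, with a log2 fold change of -0.07 and a 95% interval of -0.47 to 0.32 (edgeR FDR 0.834). Per cardiomyocyte marker the log2 difference of Sesn2 was -0.28, with overlap. Sesn3, the third sestrin, was as low at 4.70 ± 0.685 CPM compared to 4.94 ± 0.571 CPM (log2 fold change -0.06, FDR 0.846). The ratio of Sesn1 to Sesn2 per kilobase was 41.2 to 69.1 in tumor-bearing mice and 27.3 to 44.05 in PBS-injected mice, with PBS 1-1 above the lowest tumor-bearing mouse, LLC1 2-2.

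Ddit4 showed the largest log2 fold change of the 10 and a wide spread among PBS-injected mice. DDIT4 is induced by glucocorticoids, hypoxia and energy stress. Ddit4 (ENSMUSG00000020108, chromosome 10, 59949675 to 59951770) measured 129.8, 118.8, 135.1 and 105.5 CPM in tumor-bearing mice and 73.19, 75.72, 30.66 and 103.2 CPM in PBS-injected mice. PBS 2-1 was far below and PBS 2-5 far above the other PBS-injected mice, and PBS 2-5 nearly reached LLC1 2-2. The CV was 42.4% among PBS-injected mice and 10.7% among tumor-bearing mice. The log2 fold change was 0.79 (SE 0.26, 95% interval 0.23 to 1.35) with an edgeR FDR of 0.0761, which does not pass the threshold. The FDR was 0.0344 without PBS 2-1 (log2 fold change 0.53), 0.0227 without PBS 2-5 (1.035) and 0.0115 with every gene of at least 1 count in any mouse tested (0.81). It was 0.134 with DESeq2 and 0.212 with robust empirical Bayes, so that the call depends on which PBS-injected mice enter and on the filter. Per cardiomyocyte marker the log2 difference of Ddit4 was 0.73, and the groups overlapped.

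The levels of Ddit4 are set beside those of genes known to respond to glucocorticoids, hypoxia or stress. The summed level of 13 glucocorticoid-induced genes was 1985, 2850, 2679 and 2743 CPM in tumor-bearing mice and 1362, 1991, 1824 and 2738 CPM in PBS-injected mice, in the same order of mice. Pdk4, a kinase that restrains glucose oxidation, was the largest part of these sums with 717.8 to 1523 CPM in tumor-bearing mice and 449.4 to 1245 CPM in PBS-injected mice, and it was not called (FDR 0.3148), so that no order of the mice is read from the sums. Of the 13, 2 were called higher: Klf15, a transcription factor of cardiac metabolism (log2 fold change 0.75, FDR 0.00167), and Klf9 (0.34, FDR 0.0372), which was 15.4% compared to 8.73% of all genes, with a list median of 0.35. The number called higher was 7 without PBS 2-5, with a list median of 0.65, and 1 without LLC1 1-2, LLC1 1-3, LLC1 2-2, PBS 1-3 or PBS 2-1 and with library totals only. Klf9 was not called in 6 of the 8 analyses that left out a mouse. At an unadjusted p under 0.05 in edgeR stood 7 of the 13, 6 of them higher, and DESeq2 called 3. Of 12 hypoxia-induced genes 1 was called higher (8.33%, near the 8.73% of all genes), Bnip3, a receptor for mitophagy (log2 fold change 0.35, FDR 0.02775), with summed levels of 1739 to 1977 CPM compared to 1708 to 1998 CPM. By edgeR none of these 12 was called higher without LLC1 1-2, LLC1 1-3, LLC1 1-5, PBS 1-3 or PBS 2-1. An unadjusted p under 0.05 in edgeR was found for 6 of the 12, 4 of them higher, and DESeq2 called 2. Of 12 tested ATF4 and stress response genes 0 were called by edgeR, with 3 at an unadjusted p under 0.05, all higher, and 1 called by DESeq2. Glucocorticoids, oxygen and energy stress were not among the values used here, and their part in the level of Ddit4 was not tested.

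Ddit4l, the relative of Ddit4, was the scarcest transcript of the 10. Ddit4l (ENSMUSG00000046818, chromosome 3, 137621612 to 137628333) measured 1.72, 1.18, 2.02 and 2.67 CPM in tumor-bearing mice and 2.49, 1.12, 2.47 and 1.30 CPM in PBS-injected mice, from 16 to 53 counts per library. The groups overlapped, and the log2 fold change was 0.07 with a 95% interval of -0.60 to 0.75 (edgeR FDR 0.909). Per cardiomyocyte marker the log2 difference of Ddit4l was -0.11, with overlap. The ratio of Ddit4 to Ddit4l per kilobase ran from 68.4 to 173.5 in tumor-bearing mice and from 21.5 to 137.5 in PBS-injected mice.

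**Figure D3:**
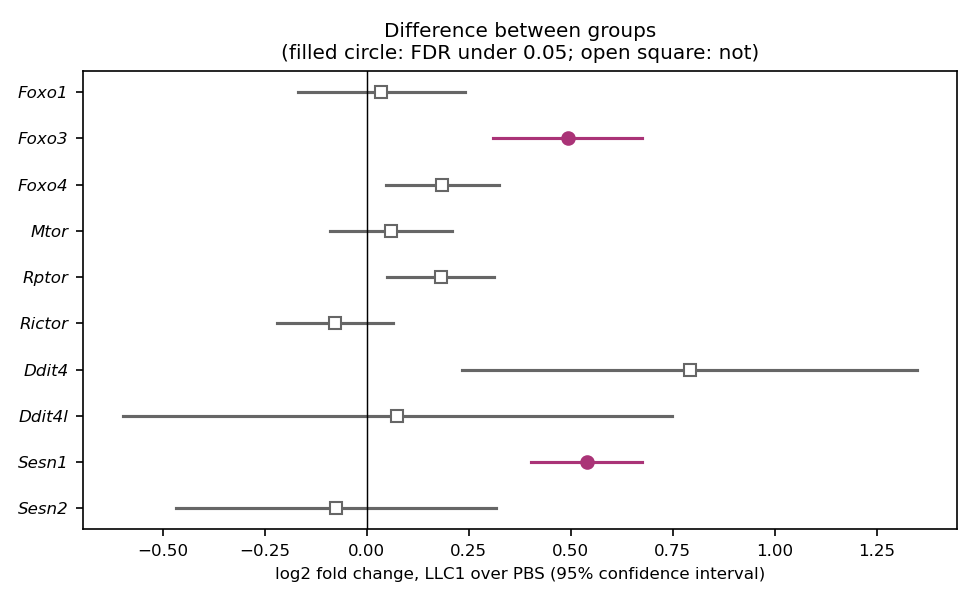
Log2 fold change of tumor-bearing over PBS-injected mice (horizontal axis) with its 95% confidence interval for the 10 transcripts, from edgeR with n = 4 per group. Filled circles mark Foxo3 and Sesn1, whose FDR was under 0.05, and the widest intervals belong to Ddit4 (0.23 to 1.35) and Ddit4l (-0.60 to 0.75).

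Per kilobase of gene length, Ddit4 (42.0 ± 17.8 CPM per kilobase, SD, n = 4) and Sesn1 (40.3 ± 2.30) were the most abundant of the 10 in PBS-injected mice, and these neighbors overlapped. Foxo4 (18.1 ± 0.354), Foxo3 (13.0 ± 1.16), Mtor (9.88 ± 0.744) and Rptor (4.19 ± 0.139) followed without overlap between neighbors. Rictor (3.31 ± 0.0303) and Foxo1 (3.08 ± 0.27) overlapped each other, and Sesn2 (1.22 ± 0.179) and Ddit4l (0.633 ± 0.253) closed the order. In tumor-bearing mice the order was the same but for Foxo1 (3.16) and Rictor (3.13), which changed places, and Foxo3 (18.25 ± 1.75) drew near to Foxo4 (20.6 ± 1.35). Ddit4 and Sesn1, whose proteins brake complex 1, were thus the most abundant of the 10 per kilobase, whereas their paralogs Ddit4l and Sesn2 were at the bottom in either group.

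Transcripts around the kinase complexes were counted by list, to be read against the 8.73% of all genes called. Of 9 partners of the mTOR complexes 1 was called, Akt1s1, which encodes the inhibitory complex 1 subunit PRAS40 (43.3 ± 2.40 compared to 32.5 ± 5.50 CPM, log2 fold change 0.42, FDR 0.0291), and the median of the list was 0.0046. Of the 5 genes of the TSC complex and RHEB edgeR called 0, with 1 at an unadjusted p under 0.05 and 1 called by DESeq2. Of 28 genes of the amino acid sensing branch 2 (7.14%) were called higher, a share near that of all genes. Flcn, which encodes folliculin, an activator of RAG GTPase signaling, rose to 120.3 ± 10.3 CPM from 79.3 ± 3.34 CPM (log2 fold change 0.60, FDR 0.00103). Itfg2 of the KICSTOR complex rose by 0.34 (FDR 0.048). Flcn was called without each of the 8 mice in turn, but Akt1s1 and Itfg2 in only 2 of these 8 analyses. Of the 10 alternative analyses, Flcn was called in 10, Akt1s1 in 9 (not with offsets for GC content) and Itfg2 in 7.

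Among 16 substrates of the mTOR complexes 4 were called higher and 0 lower. Eif4ebp1, which encodes the translation repressor 4E-BP1, had the lowest FDR of these (68.95 ± 7.07 compared to 44.6 ± 2.75 CPM, log2 fold change 0.63, FDR 0.00139). The others were Atg13 (0.32, FDR 0.0116) and Ulk1 (0.36, FDR 0.049), which start autophagy, and Eef2k (0.34, FDR 0.0296), a kinase that slows elongation. Eif4ebp1 and Atg13 were called without each of the 8 mice in turn, Eef2k in 4 and Ulk1 in 3 of these 8 analyses. Ulk1 was called in 5 of the 10 alternative analyses, and its groups overlapped. Ulk1 and Atg13 were among the genes that the study had listed for their change in these mice, so their direction is not independent evidence. With scaling to library totals only 1 of the 16 was called. The number was 2 without LLC1 1-3, LLC1 2-2 or PBS 1-3, and 7 without PBS 1-1.

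Of 28 known FOXO target genes, Sesn1 and Rictor among them, 9 were called higher and 1 lower, with a median log2 fold change of 0.21. This was 35.7% of the list, compared to 8.73% of all genes. Without those of the 10 genes followed here the count was 8 higher and 1 lower of 26. Gabarapl1, an autophagy protein of the LC3 family (log2 fold change 0.58, FDR 0.001385), Eif4ebp1 and Klf15 had the lowest FDR after Sesn1. Cited2, a transcriptional coregulator (0.84, FDR 0.00922), Map1lc3b, Bnip3 and the muscle ubiquitin ligases Trim63 (0.34, FDR 0.02125) and Fbxo32 (0.45, FDR 0.0407) rose too, and Tnfsf10, the death ligand TRAIL, fell (log2 fold change -0.52, FDR 0.0427). The study had listed 6 of the 28 for their change in these mice, and all 6 were called. Of the other 22 genes, which include Sesn1 and Rictor of the 10, 4 were called higher (Sesn1, Klf15, Cited2 and Eif4ebp1) and 0 lower. Over all 28 the count called was 5 without PBS 1-3, 6 without LLC1 1-3 or LLC1 1-5, 7 without LLC1 2-2 and 11 without PBS 1-1. Scaling to library totals gave 7 higher and 1 lower, and offsets for gene length 13 higher and 0 lower.

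Of 13 other FOXO family members and co-regulators 2 were called lower, the 14-3-3 genes Ywhab (log2 fold change -0.21, FDR 0.0441) and Ywhaq (-0.28, FDR 0.044), whose proteins hold phosphorylated FOXO in the cytoplasm. Neither was called with offsets for gene length or GC content, with the filter of at least 1 count in any mouse, or without any one of the 4 tumor-bearing mice or PBS 1-3. Of 14 tested genes of a list of p53 targets that did not include Sesn1, 3 were called lower and 0 higher, the receptor gene Eda2r (-0.93, FDR 0.00982), Zmat3 (-0.46, FDR 0.0287) and Phlda3 (-0.54, FDR 0.0369). The number called lower was 1 without LLC1 1-2, LLC1 1-3 or PBS 1-3. Of the 14, 6 had a log2 fold change above 0 and 8 below, with a median of -0.07.

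Over the 11 lists, 22 of 152 genes tested other than the 10 were called (15 higher, 7 lower, 14.5%), compared to 8.73% of all genes. The study had picked 9 of the 152 for their change, all 9 were called, and of the remaining 143 genes 13 (9.09%) were called. Without PBS 1-3 8 genes were called, and 10, 11, 12 and 14 without LLC1 1-3, 1-5, 2-2 and 1-2. Of the 22 genes 7 were called without each of the 8 mice in turn (Atg13, Cited2, Eda2r, Eif4ebp1, Flcn, Gabarapl1 and Klf15), and 6 of these, all but Atg13, also in all 10 alternative analyses.

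**Figure D4:**
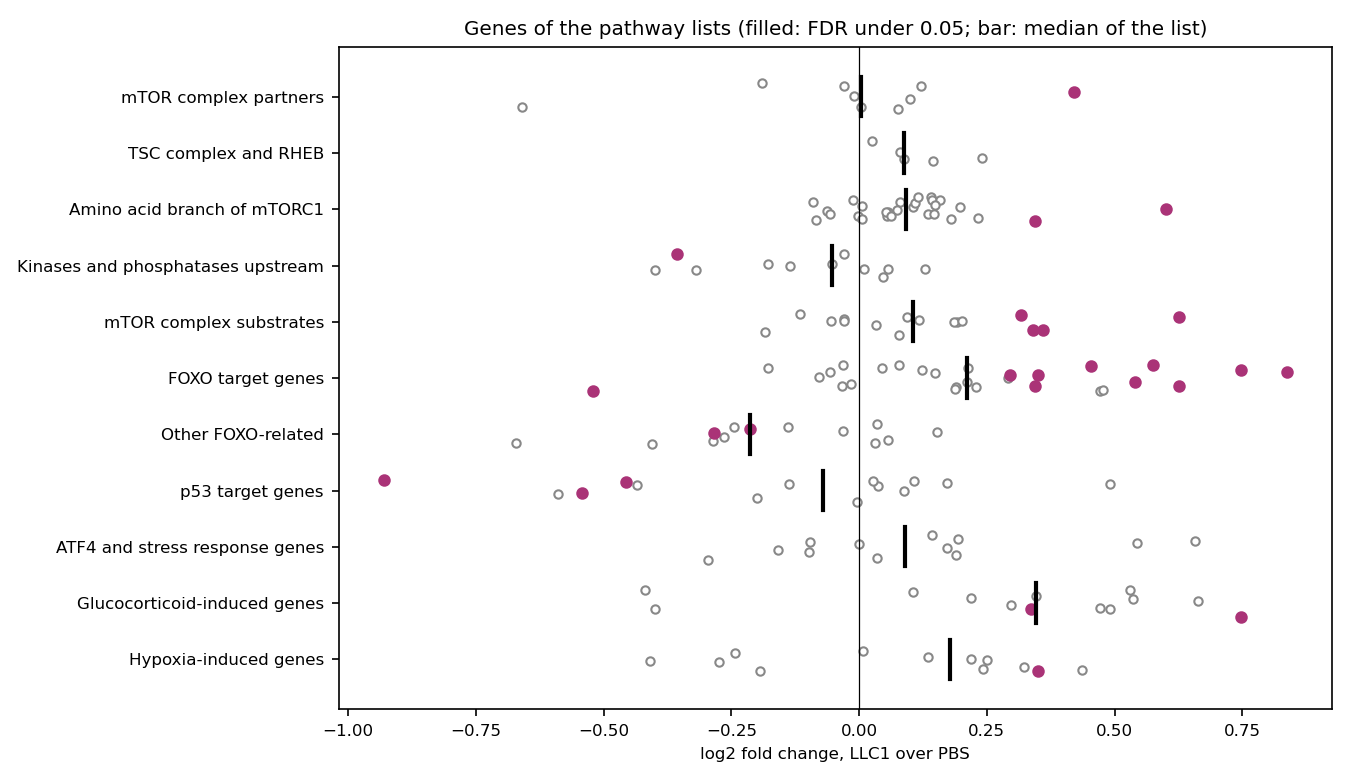
Log2 fold change of tumor-bearing over PBS-injected mice (horizontal axis) for each gene tested in the 11 pathway lists, with filled points for an FDR under 0.05 and a black bar at the median of each list; vertical scatter within a list has no meaning. The FOXO target genes held 9 called points to the right of 0 and 1 to the left, and the p53 target genes 3 to the left.

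The genes most like the called ones over the 8 mice were found by the root mean square difference of centered log2 CPM. For Foxo3 these were Slc25a34 (0.0472, log2 fold change 0.50), Gm29331 (0.0633) and Plscr2 (0.0637), compared to a median of 0.326 over all genes. For Sesn1 they were Cacna1s (0.0823, log2 fold change 0.52), 1110007C09Rik (0.0834) and Gm11508 (0.0872), compared to a median of 0.331. Slc25a34 encodes a mitochondrial carrier family member and Cacna1s the skeletal muscle calcium channel.

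Sesn1 and Foxo3 are neighbors on chromosome 10, 273416 bases apart, a fact looked at after their values were seen. Of the 2 genes between them Armc2 was tested (log2 fold change 0.37, FDR 0.0447), and of the 13 other genes tested from 500000 bases before Sesn1 to 500000 bases after Foxo3 1 was called, Armc2, a share near the 8.73% of all genes.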

How the data were processed

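Ventricular RNA of 8 male mice was sequenced by the authors as paired-end reads, which they mapped to mouse build mm10. The deposited values are raw counts of reads per gene and mouse, whole numbers without normalization. The submitters' processing notes name CASAVA, STAR and featureCounts. Annotation and strand setting are not given in the sources used here.

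Groups came from the stated treatment, and mice are named by group and replicate code. The labels do not say whether animals shared a cage or injection day. Counts of the 16111 genes kept by filterByExpr were scaled with TMM factors and compared with edgeR 4.0.16 (R 4.3.3), estimateDisp, glmQLFit and glmQLFTest, at a Benjamini-Hochberg FDR under 0.05. CPM per kilobase used the gene length in the file. Each fold change (log2) was divided by the square root of F to obtain its SE. A 2-sided exact permutation test over the 70 arrangements of log2 CPM cannot go below a p of 0.0286, the value it gave for all 5 genes whose groups did not overlap; it gave 0.314 for Mtor and 0.0857 for Rictor. The biological coefficient of variation was 0.109. Alternatives were DESeq2 1.42.0, limma-voom (limma 3.58.1), upper-quartile factors, library totals only, other count filters (at least 1 count in any mouse, at least 10 in every mouse), a robust fit, a covariate from the first number of the code, loess offsets (span 0.3) for gene length or GC content, and each mouse left out. The steps were tested on simulated data. Exon overlaps and GC content came from GENCODE M21 and similar transcripts from BLAST 2.17.0. Other steps used Python 3.11.15 (numpy 2.4.6, pandas 2.3.3, scipy 1.17.1, matplotlib 3.10.9).

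The genes followed and all lists were chosen with earlier results of these data known. Named are the 10 genes, Foxo6, Sesn3, from each list at most the 4 called genes of lowest FDR per direction, and for each called gene of the 10 the 3 genes closest to it over the 8 mice. Map1lc3b, Bnip3, Cited2, Trim63 and Fbxo32 among FOXO targets, and Armc2, Ckm, Pdk4 and the myosin genes, were named after their values were seen. No paper values were used, apart from the symbols in its tables, which only served to count genes it had picked. Echocardiography, protein synthesis and other assays were not analysed here. A result of 1 pathway list is not reported here, while the counts over all lists include its genes.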

Additional observations from a re-analysis of the deposited data

How the results depend on the processing

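Sesn1 and Foxo3 kept direction and call in all 10 alternatives and without each of the 8 mice. Scaling to library totals only moved the genes called higher from 663 to 225 (793 lower), those of the pathway lists from 15 to 8, and the log2 fold change of Foxo1 to -0.0156. Offsets for gene length called 4 of the 10 genes (Foxo4 and Rptor in addition), 25 list genes higher and 4 lower, and put Rictor at 0.0111. Offsets for GC content left 4 list genes lower and put Rictor at 0.0293. No scaling moved the median log2 fold change of all genes by as much as 0.1. Without division by gene length 5 of 10 genes kept their rank. The remaining settings called 1317 to 1757 of all genes and 20 to 30 list genes, compared to 1406 and 22.

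Leaving out 1 mouse gave 542 to 1949 genes called (212 to 908 higher, 330 to 1041 lower), 2 to 3 of the 10 genes, and 8 to 28 list genes (6 to 20 higher, 2 to 9 lower). The count over all genes was 542 without PBS 1-3, 634, 712, 751 and 832 without LLC1 1-3, 1-5, 1-2 and 2-2, and 1949 without PBS 1-1. The log2 fold change ranged from -0.0228 to 0.0938 for Foxo1, from -0.20 to 0.0543 for Sesn2 and from -0.15 to 0.27 for Ddit4l, so that their signs turned. These 3 were never called, and the latter pair had few counts (40 to 98 and 16 to 53 per library). The cause of these shifts was not tested. No paired analysis was possible because the groups share 1 replicate code, carried by different animals.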
